A study of Mus musculus with 16 samples.

Results

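The receptor chains of the common gamma chain cytokine family were followed in CD8 T cells of leukaemia-bearing mice. The 7 genes Il7r, Il2ra, Il2rb, Il2rg, Il4ra, Il15ra and Il21r were taken by name, each through a probe set that the probe table assigns to exactly 1 gene, and 6 of the 7 had such a probe set, among 22180 genes tested. Il2rg was matched to no probe set by symbol or gene ID and was not analysed here. Each of the other 6 had a single probe set, so no choice between probe sets was needed.

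The study asked how Il4i1 in bone marrow derived cells bears on CD8 T cells in chronic lymphocytic leukaemia (CLL), and measured RNA of sorted spleen CD8 T cells on 1-colour Affymetrix arrays. Il4i1 encodes a secreted oxidase of aromatic amino acids. Female mice of the labelled strain C56BL/6 were bone marrow chimeras and carried transplanted CLL cells from Eµ-TCL1 mice for 5 weeks before the sort. The 4 groups, with 4 arrays each, were effector cells (CD44 positive, CD127 negative) from Il4i1 KO chimeras, effector cells from WT chimeras, memory cells (CD44 high, CD127 high) from Il4i1 KO chimeras, and memory cells from WT chimeras. All groups therefore carried both a marrow transplant and leukaemia, and none was free of disease. The labels give neither age, nor the genotype of the host, nor the share of sorted cells that came from donor marrow, and they leave unsaid whether the arrays of a group are separate animals. The p-values refer only to the variation among these arrays, which may be technical.

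Cytokines of this family bind a private receptor chain that pairs with the common gamma chain, the product of Il2rg. The kinase JAK1 sits on the private chain and JAK3 on the common chain, and both activate STAT transcription factors that drive survival, growth and differentiation of lymphocytes. IL-7 and IL-15 keep memory CD8 T cells alive, IL-2 and IL-21 shape effector cells, and IL-7 receptor protein, CD127, is used to tell memory cells and their precursors from short-lived effector cells. CD127 was a sort marker here, so the Il7r difference between the subsets is set by the gate and is described without a test.

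Values are log2 expression as deposited, and differences are KO minus WT or effector minus memory on that scale, with standard errors (SE) and adjusted p-values from limma over all 22180 genes. A gene was called at an adjusted p under 0.05. Array medians lay between 4.12 and 4.22, and array effector KO 4 correlated with the other arrays at 0.965 to 0.974 over genes, against 0.971 to 0.994 among all other pairs. The genes of the CD8 T cell list, 7 measured of 8, lay above the array median in every group. The Il4i1 probe set is shared with other genes and cannot check the genotype: it averaged 5.90 in effector KO and 5.95 in effector WT, and 5.67 in memory KO and 5.99 in memory WT. In sorted bulk RNA, fewer cells that express a gene and less of its RNA per cell cannot be told apart.

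Il7r encodes the private chain of the IL-7 receptor, which also serves the cytokine TSLP together with Crlf2. In effector cells it stood at 6.60, 5.43, 5.00 and 5.75 on the KO arrays, against 3.83, 3.85, 4.02 and 4.46 on the WT arrays. The groups did not overlap. Il7r exceeded the array median on only 1 of 4 effector WT arrays, which leaves the size of the fold uncertain. Il7r rose 3.14-fold in effector KO cells (log2 difference 1.65 ± 0.25 SE, 95% interval 1.12 to 2.19, adjusted p = 0.0183). This SE pools the spread of all 4 groups, and the Il7r spread was unequal. Its SD was 0.68 in effector KO, 0.29 in effector WT, 0.14 in memory KO and 0.29 in memory WT. The exact two-sided permutation p was 0.0286, the smallest that 4 against 4 arrays can give. Il7r was the only member called in effector cells, 1 of 6, where 0.0541% of all genes were called, and it ranked 8 of 22180 by p.

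Both effector groups passed a CD127-negative gate, and Il7r RNA is therefore read in cells chosen for low receptor protein. The effector KO level remained far under memory cells, where Il7r stood at 11.06, 11.07, 10.94 and 11.27 on the KO arrays and 10.84, 10.29, 10.73 and 10.96 on the WT arrays. The effector over memory gap was -5.39 in KO chimeras and -6.66 in WT chimeras. In memory cells Il7r was 0.38 ± 0.25 higher in KO (adjusted p = 0.617, exact permutation p = 0.0571) and the groups overlapped. The KO minus WT difference of effector cells exceeded that of memory cells by 1.27 ± 0.36, which did not pass over all genes (adjusted p = 0.837). Averaged over both subsets Il7r rose by 1.02 ± 0.18 in KO (adjusted p = 0.0265, exact permutation p = 0.000816 over 4900 arrangements), 1 of 6 members against 0.194% of all genes.

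The call in effector cells was lost in 5 of 23 alternatives, at differences of 1.58 to 1.65, against 1.35 to 1.88 over all 23. Its adjusted p was 0.445 when the memory arrays were left out of the model, 0.0642 without effector KO 4, and 0.0952, 0.0922 and 0.0729 without effector WT 1, 2 and 3. Leaving out 1 of the 8 memory arrays could not move this difference, only its error. Averaging probe sets could not move it either, as Il7r has 1. The averaged call was lost in 7 of 22, without effector WT 1 or 2, memory KO 1 or 4, or memory WT 1, 2 or 3, at adjusted p-values of 0.0501 to 0.0696. Other genes of the memory sort list stood beside it in effector cells. The egress receptor gene S1pr1 differed by 1.09 ± 0.21 (adjusted p = 0.119), the transcription factor gene Lef1 by 0.20 ± 0.13, the homing receptor gene Ccr7 by -0.10 ± 0.23 and Cd44 by -0.28 ± 0.12. In memory cells S1pr1 was 0.47 ± 0.21 higher in KO (limma adjusted p = 0.43). Averaged over both subsets, limma called 2 of the 5 measured genes of the list higher in KO, Il7r and S1pr1, against 0.194% of all genes. The log2 summed signal of the 5 measured genes of 7 on that list, Il7r included, was 9.73 to 10.39 in effector KO and 9.30 to 9.69 in effector WT, against 12.04 to 12.35 in memory KO and 11.46 to 11.98 in memory WT. The part of sort purity in the Il7r difference was not tested.

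The Il7r promoter is shown because Il7r was the only member called between genotypes. It is the RefSeq window of 250 bases before to 50 after a start, build GRCm38.p6, chr15:9529827-9530126, minus strand. The gene as annotated reaches to 9529941, so this start and the ETS and RUNX matches lie inside it. Capitals mark letter matches, on either strand, to a STAT motif (TTCNNNGAA), an ETS motif (CAGGAAGT, here as its reverse complement ACTTCCTG) and a RUNX motif (TGTGGT).
Il7r: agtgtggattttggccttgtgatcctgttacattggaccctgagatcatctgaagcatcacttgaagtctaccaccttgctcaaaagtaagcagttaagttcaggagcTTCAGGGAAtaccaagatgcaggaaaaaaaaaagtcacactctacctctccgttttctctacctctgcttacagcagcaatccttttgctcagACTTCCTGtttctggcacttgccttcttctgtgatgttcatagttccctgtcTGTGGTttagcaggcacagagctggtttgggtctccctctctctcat
Of 32851 promoter windows in the table, 8.3% hold the STAT letters, 3.33% the ETS letters and 16.8% the RUNX letters. The motifs were picked after the sequences were seen, and a match describes letters only.

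**Figure D1:**
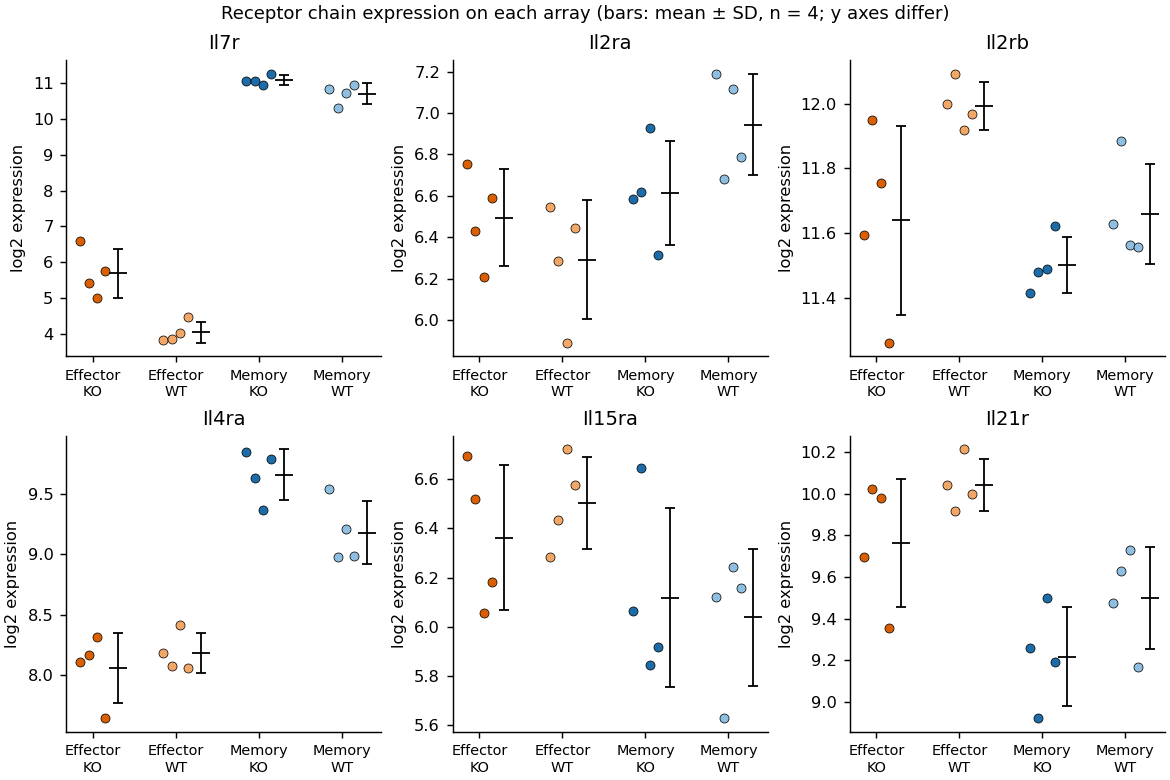
Log2 expression (y axis, own scale per panel) of the 6 measured receptor chains on every array, by group (x axis, 4 arrays each), with bars for the mean ± SD. Effector KO lies above effector WT for Il7r (5.00 to 6.60 against 3.83 to 4.46), and Il4ra is higher in both memory groups than in both effector groups.

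Il4ra encodes the private chain for IL-4, which also forms the IL-13 receptor together with Il13ra1. It stood at 8.11, 8.17, 8.31 and 7.64 in effector KO, against 9.84, 9.63, 9.37 and 9.78 in memory KO. In WT chimeras the values were 8.18, 8.08, 8.41 and 8.06 in effector cells and 9.54, 8.98, 9.21 and 8.99 in memory cells. No effector array reached any memory array. Il4ra was 3.03-fold lower in effector than memory cells of KO chimeras (-1.60 ± 0.16, adjusted p = 1.96e-05) and 1.99-fold lower in WT chimeras (-0.99 ± 0.16, adjusted p = 0.00168). Averaged over genotypes the difference was -1.30 ± 0.11 (adjusted p = 1.77e-06, exact permutation p = 0.000408, the smallest possible), and it was called in all 23 alternatives run, as were the KO and WT values in all 24. Some of the 24 left out an array of the other genotype, which cannot move the KO or WT value.

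Il21r encodes the private chain of the IL-21 receptor and ran the other way. Its values were 9.70, 10.03, 9.98 and 9.35 in effector KO, against 9.26, 8.92, 9.50 and 9.19 in memory KO, where only effector KO 4 lay within the range of the memory arrays. WT chimeras had 10.04, 9.92, 10.21 and 9.9995 in effector cells and 9.48, 9.63, 9.73 and 9.17 in memory cells, without overlap. Averaged over genotypes Il21r was 1.46-fold higher in effector cells (0.55 ± 0.11, adjusted p = 0.00382, exact permutation p = 0.000816), in all 23 alternatives. The difference was 0.55 ± 0.16 within KO chimeras (adjusted p = 0.0468) and 0.54 ± 0.16 within WT chimeras (adjusted p = 0.0796), so 1 passed and 1 did not at nearly equal size. The KO call was lost in 14 of 24 alternatives, at adjusted p-values up to 0.154. The WT difference was called in 4 of 24.

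Il4ra and Il21r are neighbours. On GRCm38.p6 they lie on chromosome 7 at 125552271 to 125579474 and 125603252 to 125634397, with 23.8 kb and 0 annotated genes between them, yet Il4ra was lower and Il21r higher in effector cells. Il4i1 lies on the same chromosome, 80.7 Mb from Il4ra. Both promoters are printed because the pair differs in direction. Capitals mark an octamer motif (ATGCAAAT) in the Il4ra window, chr7:125552021-125552320, plus strand, and in the Il21r window, chr7:125603179-125603478, plus strand, a forkhead motif (TGTTTAC) that overlaps a RUNX motif read on the other strand (ACCACA). The Il21r window is set on a start inside the gene as annotated from 125603252, and its marked motifs lie inside the gene.
Il4ra: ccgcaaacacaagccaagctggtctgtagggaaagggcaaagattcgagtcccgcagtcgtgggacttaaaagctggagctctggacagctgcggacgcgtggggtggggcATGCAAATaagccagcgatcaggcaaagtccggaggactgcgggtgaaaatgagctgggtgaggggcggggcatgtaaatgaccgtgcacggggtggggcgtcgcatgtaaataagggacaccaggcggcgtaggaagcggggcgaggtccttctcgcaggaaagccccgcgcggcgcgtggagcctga
Il21r: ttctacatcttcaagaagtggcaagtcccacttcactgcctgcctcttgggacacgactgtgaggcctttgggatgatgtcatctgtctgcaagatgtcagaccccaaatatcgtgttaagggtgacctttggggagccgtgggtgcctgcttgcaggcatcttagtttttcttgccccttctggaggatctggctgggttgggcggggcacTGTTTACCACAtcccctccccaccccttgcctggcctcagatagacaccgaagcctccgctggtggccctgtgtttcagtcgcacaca
The octamer letters occur in 1.74% and the forkhead letters in 3.65% of all windows. None of the 5 motifs was found in the windows of Il2ra and Il15ra.

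**Figure D2:**
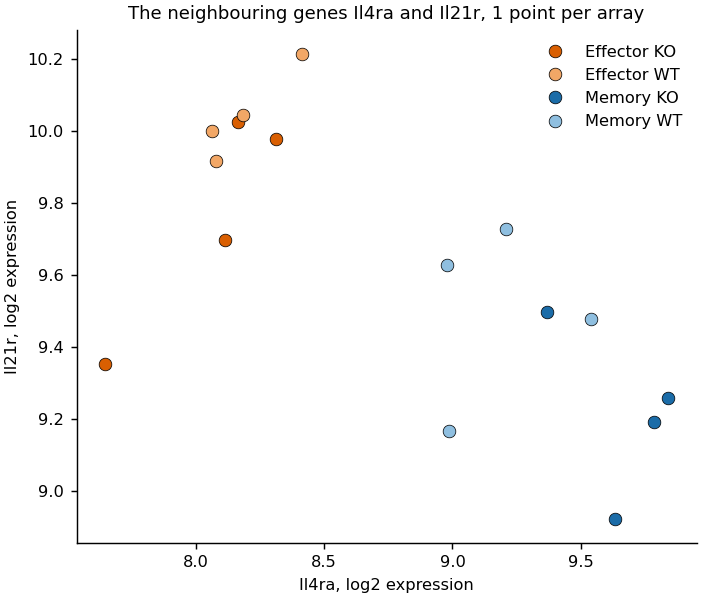
Log2 expression of Il4ra (x axis) and Il21r (y axis), 1 point per array, coloured by group. Effector arrays lie at 7.64 to 8.41 for Il4ra and 9.35 to 10.21 for Il21r, and memory arrays at 8.98 to 9.84 and 8.92 to 9.73.

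Il2ra and Il15ra also lie close together, on chromosome 2 at 11642792 to 11693194 and 11705172 to 11733985. They are 12.0 kb apart, with 1 annotated gene, Gm39759, between them. Il2ra encodes CD25, the alpha chain that raises the affinity of the IL-2 receptor and does not signal. It stood at 6.75, 6.43, 6.21 and 6.59 in effector KO against 6.58, 6.62, 6.93 and 6.31 in memory KO, which overlapped, and at 6.55, 6.28, 5.89 and 6.44 in effector WT against 7.19, 6.68, 7.11 and 6.79 in memory WT, which did not. In KO chimeras the difference was -0.12 ± 0.17 (adjusted p = 0.772, 95% interval -0.47 to 0.24). In WT chimeras Il2ra was 1.57-fold lower in effector cells (-0.65 ± 0.17, adjusted p = 0.0447). The test of the difference between these gaps did not pass over all genes (0.54 ± 0.24, adjusted p = 0.841).

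The Il2ra call in WT chimeras was lost in 11 of 24 alternatives, among them quantile normalization (adjusted p = 0.0612), and at most at 0.159, without memory WT 1. The averaged difference of -0.38 ± 0.12 (adjusted p = 0.0444) was lost in 12 of 23, with a highest adjusted p of 0.0988, again without memory WT 1.

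Il15ra encodes the alpha chain that holds IL-15 and presents it to neighbouring cells. Its values were 6.69, 6.52, 6.06 and 6.18 in effector KO, against 6.06, 6.65, 5.85 and 5.92 in memory KO, and 6.28, 6.43, 6.72 and 6.57 in effector WT, against 6.12, 5.63, 6.24 and 6.16 in memory WT. The WT groups did not overlap and the KO groups did. Il15ra differed by 0.24 ± 0.19 in KO chimeras (adjusted p = 0.525) and 0.47 ± 0.19 in WT chimeras (adjusted p = 0.247), and by 0.35 ± 0.13 over both (adjusted p = 0.0998, 95% interval 0.07 to 0.63). It was called in 2 of 23 alternatives of the averaged comparison, so the opposite signs of Il2ra and Il15ra rest on values at or past the edge of the threshold.

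Il2rb encodes the beta chain, which IL-2 and IL-15 share and which carries their signal with the common chain. It stood at 11.59, 11.95, 11.75 and 11.26 in effector KO, against 11.41, 11.48, 11.49 and 11.62 in memory KO, and at 12.00, 12.09, 11.92 and 11.97 in effector WT, against 11.63, 11.88, 11.56 and 11.56 in memory WT. The effector WT arrays formed a narrow group above all other groups but for effector KO 2. The subset difference was 0.14 ± 0.12 in KO chimeras (adjusted p = 0.605) and 0.34 ± 0.12 in WT chimeras (adjusted p = 0.198). Over both it was 0.24 ± 0.09 (adjusted p = 0.0988). That difference was called in 2 of 23 alternatives, at 0.30 with array weights (adjusted p = 0.00752) and at 0.30 without effector KO 4 (adjusted p = 0.00984). Over the 23 it ran from 0.19 to 0.30, with a highest adjusted p of 0.18, without effector KO 2.

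In total, leaving aside the gated Il7r, 3 of 5 members were called between effector and memory cells over both genotypes, where 12.2% of all genes were called. These were Il2ra and Il4ra, lower in effector cells, and Il21r, higher. Within KO chimeras 2 of 5 were called (Il4ra and Il21r), against 7.43% of all genes, and within WT chimeras 2 of 5 (Il2ra and Il4ra), against 3.22%. The median of the 5 members over both genotypes was 0.24, and that of all genes 0.01.

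**Figure D3:**
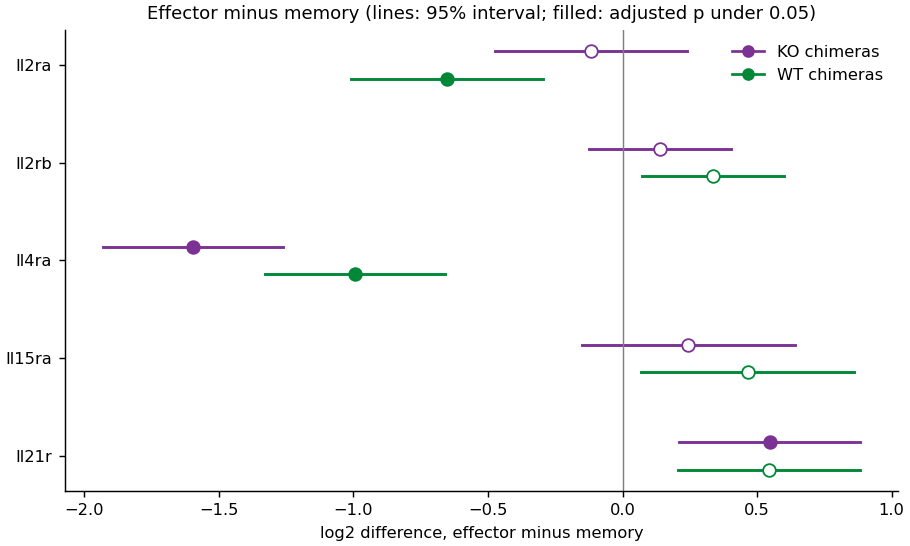
Log2 difference between effector and memory cells (x axis) for the 5 members not used in the sort, in KO and WT chimeras, with 95% intervals as lines and filled points where the adjusted p was under 0.05. Il4ra is negative in both (-1.60 and -0.99) and Il21r positive in both (0.55 and 0.54).

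Between genotypes, no member besides Il7r was called. In memory cells limma called 0 of 6 members, against 0.113% of all genes, and 1 had an unadjusted p under 0.05, against 11.3% of all genes. This was Il4ra, 1.39-fold higher in KO (0.48 ± 0.16, p = 0.00783, adjusted p = 0.261, exact permutation p = 0.0571), where memory WT 1 at 9.54 was the only WT array within the KO range of 9.37 to 9.84. In effector cells Il4ra differed by -0.12 ± 0.16 (adjusted p = 0.83), and by 0.01 without effector KO 4. The difference between the subsets was -0.60 ± 0.22 (adjusted p = 0.841).

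Il2rb differed by -0.35 ± 0.12 between effector KO and effector WT (adjusted p = 0.462, exact permutation p = 0.0571), and by -0.23 without effector KO 4. In memory cells it differed by -0.16 ± 0.12 (adjusted p = 0.686). The average over both subsets was -0.26 ± 0.09, with an exact permutation p of 0.00531 and, across the whole table, an adjusted p of 0.205. Il21r differed by -0.28 ± 0.16 in effector and -0.28 ± 0.16 in memory cells (adjusted p = 0.603 and 0.537), and the effector value was -0.14 without effector KO 4. That array had the lowest Il2rb, Il4ra and Il21r of the 8 effector arrays, at 11.26, 7.64 and 9.35.

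Il2ra differed by 0.20 ± 0.17 in effector and -0.33 ± 0.17 in memory cells (adjusted p = 0.715 and 0.477), and Il15ra by -0.14 ± 0.19 and 0.08 ± 0.19 (adjusted p = 0.838 and 0.924). For Il15ra the 95% intervals ran from -0.54 to 0.25 in effector and -0.32 to 0.48 in memory cells. The interaction called 0 of 6 members and 0% of all genes by limma. At an unadjusted p under 0.05 it held 3 of the 6 members, Il7r, Il2ra and Il4ra, and 5.84% of all genes.

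**Figure D4:**
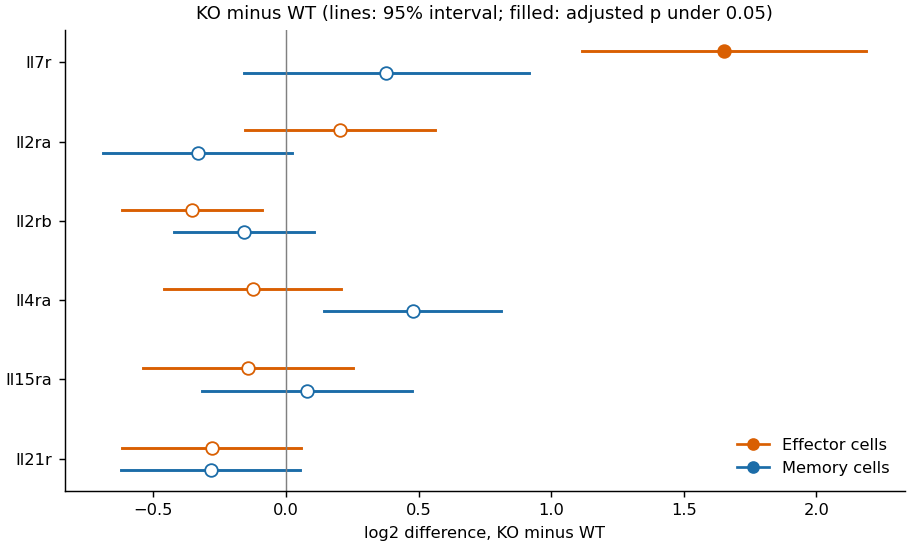
Log2 difference between KO and WT (x axis) for the 6 measured members in effector and memory cells, with 95% intervals as lines and filled points where the adjusted p was under 0.05. Il7r in effector cells (1.65) is the only filled point.

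By group mean, Il7r ran from memory KO (11.08) over memory WT (10.71) and effector KO (5.69) to effector WT (4.04), and only the memory groups overlapped. Il4ra ran from memory KO (9.66) over memory WT (9.18) to effector WT (8.18) and effector KO (8.06), with overlap within each subset and none between subsets. Il21r ran from effector WT (10.04) over effector KO (9.76) and memory WT (9.50) to memory KO (9.22), and each neighbouring pair overlapped. Il2rb was highest in effector WT (11.99), which did not overlap memory WT (11.66), while memory WT, effector KO (11.64) and memory KO (11.50) overlapped in turn. For Il2ra, from memory WT (6.94) over memory KO (6.61) and effector KO (6.49) to effector WT (6.29), and for Il15ra, from effector WT (6.50) over effector KO (6.36) and memory KO (6.12) to memory WT (6.04), every neighbouring pair overlapped.

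The wider pathway was described with 48 genes in 7 lists, of which 45 were measured. Between effector and memory cells over both genotypes 24 of the 45 were called, 9 higher and 15 lower in effector cells, against 12.2% of all genes. The median of the 45 was -0.14. Within KO chimeras 20 were called, against 7.43% of all genes, and within WT chimeras 11, against 3.22%. Among genes known to respond to these cytokines, 5 of 12 were called higher and 5 called lower in effector cells. The survival genes Bcl2 (-1.38 ± 0.14, adjusted p = 1.14e-05) and Bcl2l1 (-0.55 ± 0.08, adjusted p = 0.000129) were lower in effector cells. Prdm1, a transcription factor of terminal differentiation (1.14 ± 0.14, adjusted p = 4.94e-05), Ifng (1.21 ± 0.17), the cytokine gene Il10 (1.54 ± 0.23) and the granzyme gene Gzmb (0.81 ± 0.12, adjusted p = 0.000253) were higher. Gzmb is also on the effector sort list.

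Of 7 feedback inhibitors, 3 were called lower in effector cells and none was called higher, where 12.2% of all genes were called. These were Socs1, which blocks JAK kinases (-0.84 ± 0.08, adjusted p = 5.67e-06), the phosphatase gene Ptpn6 (-0.95 ± 0.11, adjusted p = 3.21e-05) and the adaptor gene Sh2b3 (-0.83 ± 0.12, adjusted p = 0.000157). Cish, a STAT5 target and inhibitor, was at 0.47 ± 0.17 (adjusted p = 0.09). Of 4 STAT genes, only Stat6, the main mediator of IL-4, was called, lower in effector cells (-0.32 ± 0.07, adjusted p = 0.0069), the direction of Il4ra. Stat3, used by IL-21, was at 0.17 ± 0.09 (adjusted p = 0.275), and Stat5a and Stat5b were at -0.10 ± 0.08 and -0.04 ± 0.07.

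Irs2, an adaptor of IL-4 receptor and insulin signalling, had the largest difference of the 7 kinases and adaptors (-1.82 ± 0.14, 3.52-fold lower in effector cells, adjusted p = 6.52e-07). It averaged 4.49 in effector KO and 4.47 in effector WT, near the array medians, which leaves the size of the fold uncertain. Tyk2 and Shc1 were higher (0.44 ± 0.09 and 0.22 ± 0.05), and Jak1 was at -0.17 ± 0.05 (adjusted p = 0.0592). Crlf2, the partner of Il7r in the TSLP receptor, was higher in effector cells (0.39 ± 0.06, adjusted p = 0.000454), and Il9r was lower on average (-0.47 ± 0.12, adjusted p = 0.0139). The Il9r difference was 0.0013 ± 0.17 in KO chimeras and -0.94 ± 0.17 in WT chimeras (limma adjusted p = 0.998 and 0.00405), and the difference between these did not pass (adjusted p = 0.786). Il9r averaged 4.37 in effector KO, 4.23 in effector WT and 4.37 in memory KO, near the array medians, and 5.17 in memory WT. Of 6 ligand genes, Il2 and Il15 were called lower in effector cells (-0.78 ± 0.20 and -0.88 ± 0.15, adjusted p = 0.0162 and 0.000836). Their group means were 2.33 to 4.14, at or under the level of the array medians.

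Of 6 measured genes that regulate Il7r in T cells, 3 were called between effector and memory cells over both genotypes. The share of all genes called there was 12.2%. Gfi1, a repressor of Il7r in mouse T cells, was higher in effector cells (0.68 ± 0.09, adjusted p = 8.31e-05), with 6.07 in effector KO and 5.16 in memory KO, and 5.98 in effector WT and 5.53 in memory WT. Foxo1, an activator, was lower (-0.31 ± 0.07, adjusted p = 0.00631). Foxp1, which opposes Foxo1 at Il7r in naive mouse T cells, was also lower (-0.96 ± 0.10, adjusted p = 1.23e-05). In effector cells, where Il7r differed by genotype, the 6 regulators lay between -0.38 and 0.15 in KO minus WT. None of them was called, against 0.0541% of all genes.

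**Figure D5:**
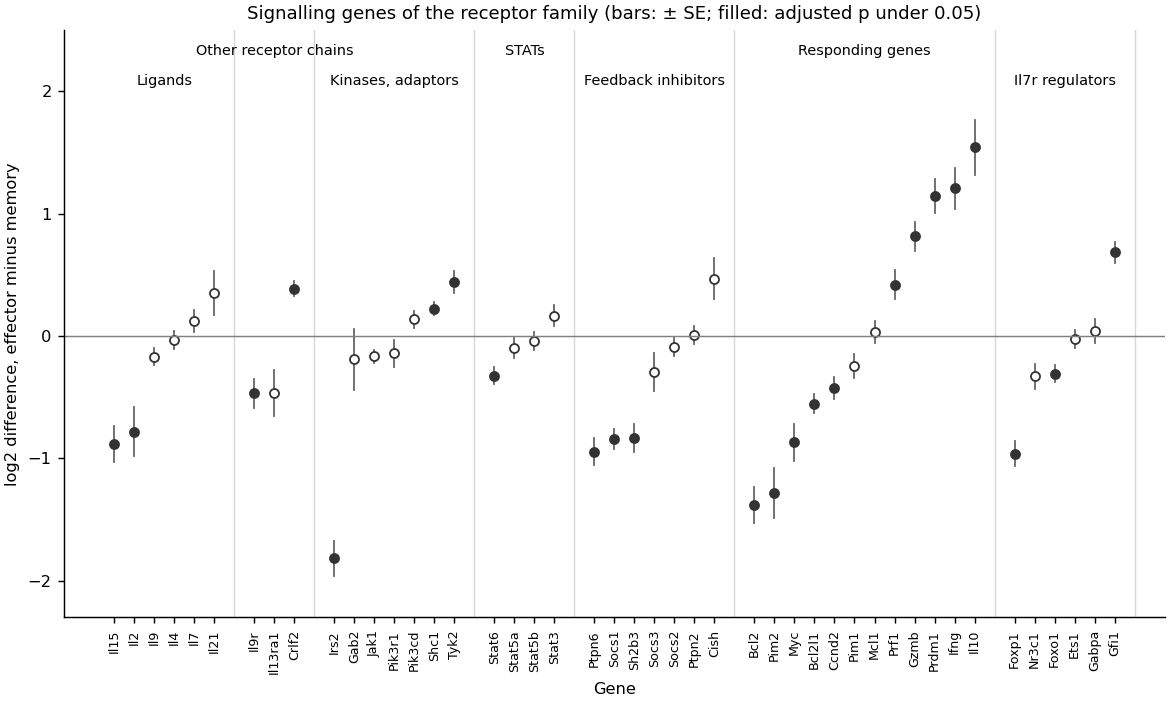
Log2 difference between effector and memory cells, averaged over genotypes (y axis), for the 45 measured pathway genes by list (x axis), with bars for the SE and filled points where the adjusted p was under 0.05. Of these, 9 called genes lie above 0 and 15 below.

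Between genotypes the pathway lists held few calls. In effector cells limma called 0 of 45, and 6 had an unadjusted p under 0.05, against 9.32% of all genes. In memory cells 15 had an unadjusted p under 0.05, against 11.3% of all genes, and limma called 1, Ifng, at 8.45 in KO and 9.79 in WT (-1.34 ± 0.24, adjusted p = 0.0404), and over both subsets 0, with 17 at an unadjusted p under 0.05, against 13.9% of all genes. The memory count of 1 was 0 to 3 over its 23 alternatives. Il9r in memory cells, at 4.37 in KO and 5.17 in WT (-0.80 ± 0.17, adjusted p = 0.0764), and Prdm1, at 7.41 in KO and 8.32 in WT (-0.91 ± 0.20, adjusted p = 0.0887), did not pass. In effector cells Socs3 was at 0.56 ± 0.22 (adjusted p = 0.484) and Stat3 at -0.36 ± 0.12 (adjusted p = 0.462).

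Transcripts of B and leukaemia cells, which can carry Il4ra, Il21r, Il2rg and Il2ra themselves, moved with the subset. Of 15 listed markers 13 were measured. Between effector and memory cells over both genotypes 10 were called, all lower in effector cells, against 12.2% of all genes. Their log2 summed signal was 7.56 to 7.85 in effector KO and 7.57 to 7.62 in effector WT, against 8.07 to 8.90 in memory KO and 8.62 to 9.74 in memory WT. In memory KO all 13 were lower than in memory WT, with a median of -0.78 and 1 called, Cd22, against 0.113% of all genes. Myeloid markers were at 10.84 to 11.02 in effector KO and 10.93 to 10.97 in effector WT, against 10.72 to 11.31 in memory KO and 11.25 to 11.39 in memory WT, a sum that rests mostly on Cst3 and Cd68. Over both genotypes 10 of the 12 myeloid markers were lower in effector than in memory cells, 5 of them called. The remaining 2 were higher, 1 of them called, and the median was -0.47, where 12.2% of all genes were called.

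CD4 and regulatory T cell markers, whose cells carry CD25, were at 8.76 to 9.93 in effector KO and 9.75 to 10.31 in effector WT, and at 8.42 to 9.21 in memory KO and 9.29 to 10.12 in memory WT. This sum rests mostly on Ikzf2, Ctla4 and Nrp1, which averaged 8.50, 7.92 and 7.64 in effector WT and 7.59, 7.74 and 6.10 in effector KO. In effector KO against WT 4 of the 9 markers were higher and 5 lower, from -1.54 for Nrp1 to 0.52 for Foxp3. In memory KO against WT 3 were higher and 6 lower. None of the 9 was called in either, against 0.0541% and 0.113% of all genes. Foxp3 and Cd4, the defining genes of these T cells, averaged 5.48 and 4.40 in effector KO, 4.96 and 4.14 in effector WT, 5.52 and 4.28 in memory KO, and 5.56 and 4.67 in memory WT. NK cell markers, whose cells carry Il2rb, were at 8.51 to 9.27 in effector KO and 8.20 to 8.90 in effector WT, against 8.25 to 9.30 in memory KO and 8.34 to 8.66 in memory WT. This sum rests mostly on Klre1, which averaged 8.75 in effector KO, 8.405 in effector WT, 8.25 in memory KO and 8.21 in memory WT. Over both genotypes 4 of the 5 measured NK markers were lower in effector than in memory cells. Of these 4, 2 were called, against 12.2% of all genes. The remaining marker was higher and not called. Effector sort genes were at 13.30 to 13.35 in effector KO and 13.26 to 13.43 in effector WT, against 12.12 to 12.73 in memory KO and 12.81 to 13.01 in memory WT. The part of any of these cells or shifts in the receptor differences was not tested.

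For each member the 3 genes with the most similar values over the 16 arrays were found by Pearson's r, as a description over arrays that share 4 groups. That such genes share a member's order of group means follows largely from this choice. Il7r was most like Dapl1 (r = 0.985), Ms4a4c (0.980) and Taf4b (0.967). The Il7r gap between subsets, which the CD127 gate sets, enters these r values. In effector cells Dapl1 averaged 5.47 in KO and 4.77 in WT, and Ms4a4c 8.10 in KO and 7.49 in WT. Taf4b was nearly level there, at 5.25 in KO and 5.22 in WT. Il4ra was most like Sh3bp5 (0.970), the G protein regulator gene Rgs10 (0.969) and Tdrp (0.965). Each of these 3, like Il4ra, averaged highest in memory KO, Sh3bp5 at 7.58 there and 7.09 in memory WT. Il2rb was most like Yipf2 (0.963), Coro2a (0.963) and Dusp6, a phosphatase of the ERK kinases (0.955), and each averaged highest in effector WT, Dusp6 at 9.70 in effector KO and 10.50 in effector WT. Il21r was most like the glucose transporter gene Slc2a3 (0.918), Lgalsl (0.914) and Fubp1 (0.910). The values were lower for Il15ra, with Zdhhc18 (0.898), Loxl3 (0.836) and Rdh10 (0.813), and for Il2ra, with Mreg (0.854), AF067061 (0.852) and Dusp3 (0.833).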

How the data were processed

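The deposited table gives 1 log2 expression value, as normalized by the authors, for each of 41345 probe sets on 16 arrays. Per the labels' protocols, RNA of sorted cells was extracted with the RNeasy Micro Kit and 1 ng labelled with the GeneChip WT Pico kit. Neither source states the normalization method or the log base. Base 2 was inferred from the range of 0.74 to 14.05. No detection calls came with the values, and the number of arrays limits the precision. Of the probe sets, 23521 carried exactly 1 gene symbol, 1814 several and 16010 none in the probe table. The probe set with the highest mean stood for a gene, which left 22180 genes.

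Group means were estimated over all 16 arrays together with limma 3.58.1 (R 4.3.3; 12 residual and 4.23 prior degrees of freedom), with Benjamini-Hochberg adjustment over all genes in each of 7 comparisons. Exact two-sided permutation tests, not adjusted, used 70 arrangements of 4 against 4 arrays or 4900 within strata. The pipeline was tested on simulated data. The members, gene lists and tests were chosen with earlier results of these data known. Genes were named by rule: members, called pathway genes (at most 6 per list by p), the 3 most similar genes and check genes, and pathway genes named without a call were chosen after their values were seen.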

Additional observations from a re-analysis of the deposited data

How the results depend on the processing

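Each comparison was refitted with the replicate number as a block over all groups, quantile normalization, a filter on dim probe sets, the mean of a gene's probe sets, trended and robust moderation, array weights, and without each array in turn. Comparisons of 2 groups were also refitted on only those groups, and subset comparisons and the interaction with the number as a block within genotype. Leaving out an array outside the groups compared cannot move a difference, only its error. Averaging probe sets cannot move a member, as each measured member has 1. The replicate numbers were not taken as pairs, since deviations of same-numbered arrays correlated at -0.05 to 0.24 and in no pair of groups were all above 0.1. Within genotype they correlated at 0.018 to 0.147 between effector KO and memory KO, where 3 of 4 numbers matched best, and at 0.087 to 0.239 between effector WT and memory WT, where 4 of 4 did, which is a hint from the data and not the design. With the replicate block over all groups, no count of called members moved by over 1.5 times, while over both subsets 5 pathway genes in place of 0 and 389 of all genes in place of 43 were called between KO and WT. With the replicate block within genotype, 1 member in place of 2 was called between effector and memory cells of WT chimeras, where quantile normalization also gave 1 and array weights gave 4. Under that block the Il2ra adjusted p was 0.0831 in WT chimeras and 0.0804 over both genotypes, and Il15ra was called over both genotypes at 0.035. In the fits of only the groups compared, 0 members in place of 1 were called in effector KO against WT and 1 in place of 2 between the subsets of KO chimeras.

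Leaving out 1 array gave 0 to 1 called members in effector KO against WT, 0 to 1 in KO against WT over both subsets, 1 to 2 between subsets in KO chimeras and 1 to 3 in WT chimeras. Uncalled differences near 0 changed sign. Il4ra in effector KO against WT was 0.0043 with array weights and -0.21 to 0.0134 without 1 array. Il15ra was -0.10 to 0.17 in memory KO against WT without 1 array, and over both subsets 0.0393 after quantile normalization and -0.12 to 0.0201 without 1 array. The Il21r interaction was -0.0015 after quantile normalization and -0.10 to 0.1393 without 1 array. The numbers of all genes called ranged from 4 to 42 in effector and 7 to 249 in memory KO against WT, 23 to 389 over both subsets, 0 to 5 in the interaction (5 without memory KO 3), 600 to 2044 between subsets in KO chimeras and 359 to 1644 in WT chimeras. With only the groups compared, the pathway count between subsets was 13 in KO chimeras in place of 20 and 17 in WT chimeras in place of 11, where array weights gave 22. The cause of these changes was not tested.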
